A study of Mus musculus with 5 samples.

Results

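Long intergenic non-coding RNAs (lincRNAs) are transcribed from their own promoters outside protein-coding genes, and many of these transcripts are spliced like mRNAs. Acetylation of lysine 9 of histone H3 (H3K9ac) is a mark of nucleosomes around active promoters, and it is placed by acetyltransferases and removed by histone deacetylases. Some lincRNAs act in the nucleus on neighbouring genes, such as those that silence an X chromosome, and others are hosts whose introns or exons are cut into small nucleolar RNAs (snoRNAs) or microRNAs (miRNAs). H3K9ac peaks at the starts of lincRNA genes were therefore described separately from those at the starts of protein-coding genes.

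The peaks came from H3K9ac ChIP-seq of a C57BL/6-derived line of mouse striatal progenitor cells that carry a mutant huntingtin gene, the cause of Huntington's disease, on both alleles (STHdhQ111/Q111). All cells were kept in serum-free medium for 24 h. The treated cells (Q111 DOP, 2 samples) received 4 mM 4-deoxypyridoxine hydrochloride, an inhibitor of sphingosine-1-phosphate lyase, and the untreated cells (Q111 SST, 2 samples) received the vehicle DPBS, whereas a normal rabbit IgG reaction (1 sample) was the negative control. The cells are a conditionally immortalized line grown at its permissive temperature, so all samples share 1 genetic background. Each condition has 1 deposited peak list on the mm9 assembly (the DOP list of treated cells and the SST list of untreated cells), so the samples of a condition cannot be compared with each other, and no difference between the lists has a replicate error.

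A peak was included when its centre lay within 1 kb of the start of an annotated lincRNA transcript (GENCODE vM1) and more than 1 kb from the start of every protein-coding transcript. This gave 332 of 34286 peaks in the DOP list (0.968%) and 298 of 33355 in the SST list (0.893%), 630 peaks in all at 205 of 1273 annotated lincRNA genes. A further 1091 and 1080 peaks lay near a lincRNA start but also within 1 kb of a protein-coding start and were left out, as their signal could belong to either gene. At the edge of the rule, 29 DOP and 16 SST peaks lay 800 to 1000 bp from the start, and 13 and 18 otherwise eligible peaks lay 1000 to 1200 bp away. The lists give an interval of 200 bp, a centre and a score for each peak, and the score has no stated definition or unit, so it is used here as a percentile rank within its own list (100 is the highest).

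The sequences of 6 of these peaks are given as examples of start-site sequence that carried the mark, and they do not span its range. Their GC content ran from 45% to 77.5%. Over all peaks at lincRNA starts it ran from 33% to 82% in the DOP list and from 33% to 83% in the SST list. They are printed from mm9 on the strand of the lincRNA, in lower case with each CG dinucleotide in capitals, because CpG-rich starts were marked more often than others. The first 3 are the highest-scoring peaks of well-marked genes, and they are the peak of 9430091E24Rik at chr8:113669134-113669333 (minus strand, SST list, 26 CG), that of Dleu2 at chr14:62267144-62267343 (minus strand, DOP list, 30 CG) and that of the snoRNA host Snhg12 at chr4:131864702-131864901 (plus strand, DOP list, 12 CG).
9430091E24Rik: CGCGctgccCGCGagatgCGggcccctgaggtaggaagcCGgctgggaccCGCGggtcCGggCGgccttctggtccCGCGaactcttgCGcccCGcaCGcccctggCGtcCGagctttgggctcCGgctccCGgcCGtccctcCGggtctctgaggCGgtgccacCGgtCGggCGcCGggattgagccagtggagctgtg
Dleu2: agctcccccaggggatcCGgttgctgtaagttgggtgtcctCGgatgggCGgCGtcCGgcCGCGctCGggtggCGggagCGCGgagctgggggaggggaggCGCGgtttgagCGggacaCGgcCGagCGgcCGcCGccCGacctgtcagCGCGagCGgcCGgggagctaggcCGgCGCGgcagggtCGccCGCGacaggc
Snhg12: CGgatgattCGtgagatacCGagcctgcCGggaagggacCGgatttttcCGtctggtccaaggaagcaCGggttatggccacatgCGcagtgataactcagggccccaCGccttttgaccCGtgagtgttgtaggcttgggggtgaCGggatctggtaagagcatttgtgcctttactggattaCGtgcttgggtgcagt

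The other 3 had no overlapping peak in the other list. They are the peak of Gm17442 at chr10:42482596-42482795 (minus strand, DOP list, 3 CG), that of the snoRNA host Gas5 at chr1:162966393-162966592 (plus strand, DOP list, 3 CG) and that of Gm11538 at chr11:96064914-96065113 (plus strand, SST list, 12 CG).
Gm17442: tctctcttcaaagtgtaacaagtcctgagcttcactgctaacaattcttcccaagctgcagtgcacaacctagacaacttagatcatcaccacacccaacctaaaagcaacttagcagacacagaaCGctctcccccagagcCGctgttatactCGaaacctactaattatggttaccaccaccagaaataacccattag
Gas5: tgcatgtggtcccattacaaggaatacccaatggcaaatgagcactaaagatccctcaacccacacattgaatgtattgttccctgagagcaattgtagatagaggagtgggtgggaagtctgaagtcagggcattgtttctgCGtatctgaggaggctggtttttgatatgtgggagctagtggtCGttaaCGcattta
Gm11538: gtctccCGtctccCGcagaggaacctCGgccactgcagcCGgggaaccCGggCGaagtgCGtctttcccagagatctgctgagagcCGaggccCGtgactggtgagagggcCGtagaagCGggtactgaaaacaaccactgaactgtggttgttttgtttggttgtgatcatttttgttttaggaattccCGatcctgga

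lincRNA genes with CpG-rich sequence at the most upstream start carried a peak more often than other lincRNA genes. CpG-rich sequence was taken as 1 kb around a position with a GC content of at least 50% and an observed over expected CpG ratio of at least 0.6. Of the 727 lincRNA genes with a start more than 1 kb from every protein-coding start (a free start), 180 had a peak in either list (24.8%, 95% Wilson interval 21.8 to 28.0). Among those whose most upstream start was CpG-rich 81 of 149 had one (54.4%, 46.4 to 62.2). Among the rest 99 of 578 did (17.1%, 14.3 to 20.4), so the intervals did not overlap. The most upstream start set this class and was not always the free one. It could itself lie within 1 kb of a protein-coding start. Another 25 genes with a peak had no free start, because the peak lay beyond the protein-coding limit although the lincRNA start did not. The same contrast was larger at protein-coding genes, whose most upstream start had a peak of either list within 1 kb in 87.6% of 9882 CpG-rich cases and in 20.1% of 12498 others. For lincRNA genes whose most upstream start lay more than 2 kb from any protein-coding start, the corresponding shares were 72.3% (68 of 94, interval 62.6 to 80.4) and 16.7% (83 of 497, interval 13.7 to 20.2). The intervals of the CpG-poor starts of both gene types overlapped (19.4 to 20.8 for protein-coding genes), and CpG-rich lincRNA starts were marked less often than CpG-rich protein-coding starts (87.0 to 88.3).

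**Figure D1:**
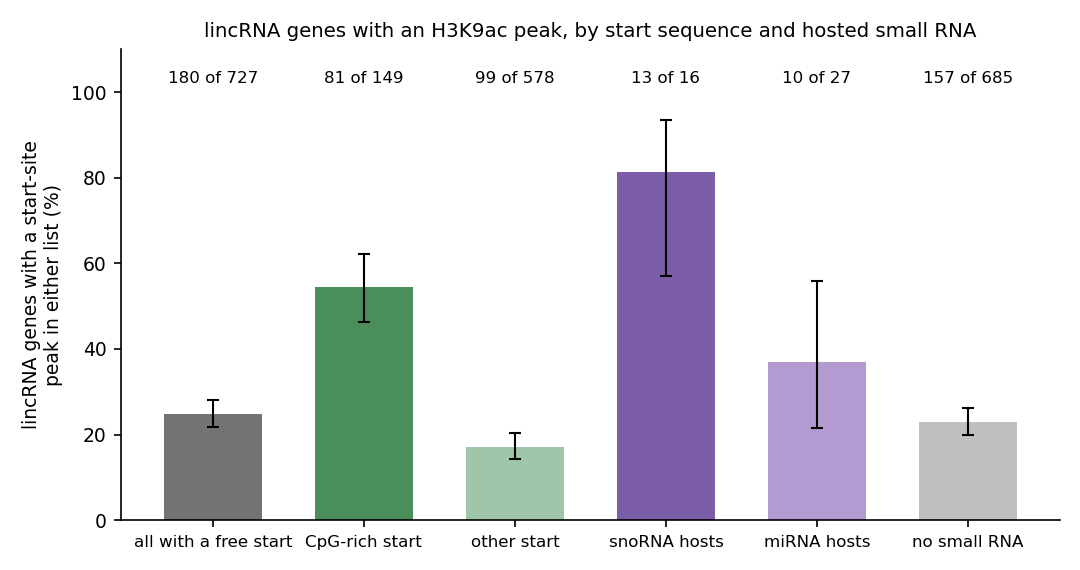
Share of lincRNA genes with a free start that had an H3K9ac peak at a start in either list (y axis, percent). Bars show all such genes, those with CpG-rich or other sequence at the most upstream start, and those grouped by hosted small RNA. Bars are shares with 95% Wilson intervals for the counting of genes and the counts stand above them; snoRNA hosts (13 of 16) and CpG-rich starts (81 of 149) stand above the 24.8% of all 727 genes.

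Peaks at lincRNA starts were themselves less often CpG-rich than peaks at protein-coding starts. In the DOP list 46.1% of the 332 peaks were CpG-rich (interval 40.8 to 51.5), against 68.1% of the 25700 peaks at protein-coding starts and 18.1% of the peaks at neither. In the SST list the shares were 47.7% of 298, 69.0% of 25423 and 19.03%. The share rose with the score, from 36.3% up to percentile 25 to 72.7% above percentile 75 in the DOP list, and from 33.3% to 77.5% in the other. Peaks at protein-coding starts rose from 38.3% to 88.4% and from 38.4% to 89.6% over the same classes. Up to percentile 25 the intervals of both kinds of peak overlapped, and above percentile 75 they did not.

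Both lists placed the mark just inside the transcript. Centres lay downstream of the nearest lincRNA start in 63.6% of the DOP peaks and 63.4% of the SST peaks, with medians of 136.5 and 127 bp. The 100-bp step with most centres began 200 bp downstream and held 14.2% and 14.4% of them. By contrast, peaks at protein-coding starts were downstream in 72.9% and 74.6%. The difference was largest on the far upstream side, where centres from -1000 to -200 bp made up 28.9% (interval 24.3 to 34.0) and 28.5% (23.7 to 33.9) of the peaks at lincRNA starts and 18.3% and 16.7% of those at protein-coding starts. Of the genes with at least 2 such peaks, 58.3% of 103 in the DOP list and 55.8% of 86 in the SST list had peaks on both sides of a start. By annotation, 28.3% and 30.5% of the centres lay in an exon of the lincRNA gene, 41.0% and 37.9% in an intron and 30.7% and 31.5% outside it.

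**Figure D2:**
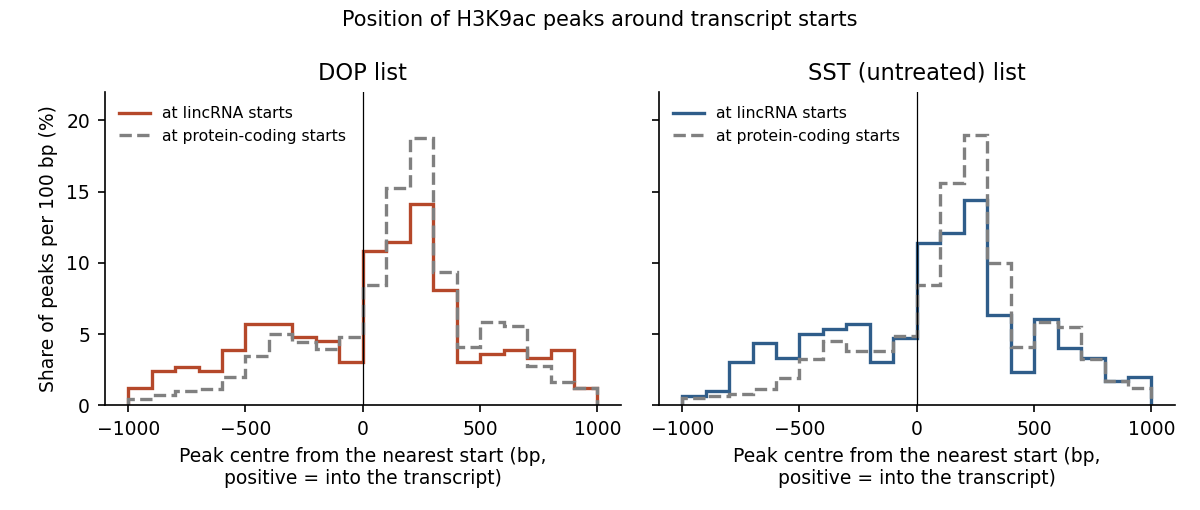
Distance of peak centres from the nearest start (x axis, bp, positive into the transcript) against the share of peaks per 100-bp step (y axis, percent), for peaks at lincRNA starts (solid) and protein-coding starts (dashed) in the DOP list (left) and the SST list (right). In both lists the lincRNA peaks are highest in the step from 200 to 300 bp (14.2% and 14.4%) and are spread further upstream than the protein-coding peaks.

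The nearest protein-coding start was often far away. It lay 1 to 5 kb from 26.5% of the DOP and 25.8% of the SST peaks, 5 to 10 kb from 14.5% and 14.1%, 10 to 50 kb from 37.7% and 38.3%, and more than 50 kb from 21.4% and 21.8%. Within 5 kb, the lincRNA and that protein-coding gene pointed away from each other, as at a shared divergent promoter, for 56.8% and 57.1% of the peaks. Beyond 50 kb this share was 19.7% and 27.7%. Only 17.5% and 17.4% of the peaks had a peak at a protein-coding start within 5 kb. Among those without one, 48.9% and 48.8% were CpG-rich and the median percentile was 44.7 and 43.0, close to the values for all peaks at lincRNA starts. Distance from a protein-coding start does not place a peak outside genes. In the DOP list 49 of the 332 centres (14.8%) lay inside a protein-coding gene.

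In score, peaks at lincRNA starts ranked between the other classes. Their median percentile was 43.4 in the DOP list and 42.8 in the SST list, whereas peaks at protein-coding starts had medians of 59.2 and 58.5 and peaks at neither had medians of 18.6 and 18.3. Only 13 peaks in each list (3.92% and 4.36%) were above percentile 90, a class that holds 12.4% and 12.3% of the peaks at protein-coding starts. The genes also had fewer peaks each, with a mean of 1.83 and 1.72 per lincRNA gene with a peak against 2.54 and 2.54 per protein-coding gene. The protein-coding count takes every peak within 1 kb of a start, whereas the lincRNA count leaves out peaks near a protein-coding start. The number of starts per gene was not matched. A single peak was found at 85 lincRNA genes in the DOP list and at 91 in the SST list. Neighbouring peaks can share an interval, and 39 and 40 of the peaks at lincRNA starts overlapped another peak of their own list, so counts of peaks per gene are not counts of separate sites.

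**Figure D3:**
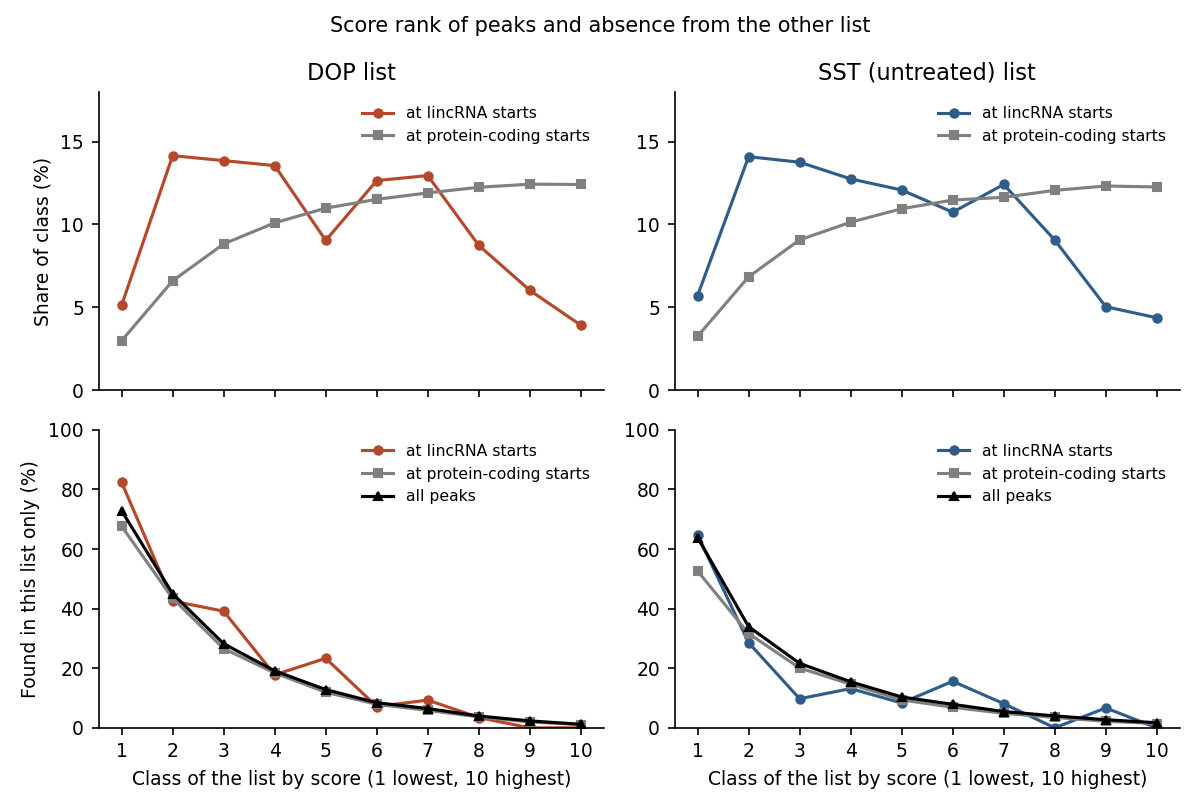
Top, share of peaks at lincRNA starts and at protein-coding starts (y axis, percent) in each of 10 equal classes of their list by score (x axis, 1 lowest to 10 highest); bottom, share of each class and of all peaks without an overlapping peak in the other list. Few lincRNA peaks lie in the highest class (3.92% and 4.36%), and absence from the other list is highest in the lowest class, at 82.4% of the lincRNA peaks there in the DOP list and 64.7% in the SST list, and is low in the highest classes.

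Genes with the highest ranks in both lists were mostly annotated under predicted or clone-based names, with a few known RNAs among them. The peaks of 9430091E24Rik reached percentile 95.7 in the DOP list and 99.5 in the SST list. Its region downstream of the start was 1 peak of score 2402.2 in the SST list and a chain of 3 overlapping peaks of 804, 919.3 and 872.8 in the DOP list, so the lists divided this region differently. For 2900052L18Rik, which lies head to head with Bahcc1, the best percentiles were 96.9 and 95.6, and for Gm17494 they were 97.9 and 94.3. The RNA known as Oip5os1 or Cyrano (annotated as 1700020I14Rik), which directs the decay of a miRNA, reached 93.2 and 94.6 with 3 peaks in each list. All of these peaks but 1 of Oip5os1 in each list were CpG-rich, and the best peak of each gene overlapped a peak of the other list. Also among the 10 genes with the highest mean rank were 2810410L24Rik, at 90.5 and 95.9 with CpG-rich peaks throughout, and D930049A15Rik, at 86.2 and 93.1. At D930049A15Rik the best peak of each list was CpG-rich and the centres lay 7 bp apart, whereas its other peak in each list was neither CpG-rich nor shared. 5430416N02Rik, one of the 5 genes with most peaks, had 5 in the DOP list and 3 in the SST list, with best percentiles of 77.6 and 76.5, and its best peaks were not CpG-rich.

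The single highest score belonged to Gm16869 on chromosome 9, at percentile 99.9 in the DOP list (3673.1) and 99.8 in the SST list (3025.8). Both of its peaks had the same centres in both lists, a GC content of 37.5% and 33.0%, and sequence repeated nearby. Of the 12-base words in them, 73.5% and 56.6% occurred at least 3 times within 1 kb of the centre, and no other peak at a lincRNA start passed 25% by this measure. They lie inside the predicted protein-coding genes Gm10719 and Gm10715. Reads from repeated sequence can be placed at the wrong copy, and the part of this in their scores was not tested.

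Most snoRNA host lincRNA genes carried the mark. A snoRNA host is spliced so that its introns release snoRNAs, which guide the chemical modification of ribosomal RNA. Of 16 annotated lincRNA genes that contain a snoRNA and have a free start, 13 had a peak in either list (81.3%, interval 57.0 to 93.4, which takes the genes as independent), against 157 of 685 lincRNA genes without a small RNA (22.9%, interval 19.9 to 26.2). Among genes with a CpG-rich most upstream start alone it was 12 of 13 snoRNA hosts (92.3%, interval 66.7 to 98.6). For genes without a small RNA it was 62 of 126 (49.2%, interval 40.6 to 57.8). The neighbours 9430037G07Rik and Gm17683 were counted on the same peaks, so the 13 marked hosts rest on 12 separate sets of peaks. Snhg7 had 1 peak in each list, at percentiles 94.9 and 92.2. The host of Snord49a, Snord49b and Snord65, annotated as 2410006H16Rik, had 2 in each, with best percentiles of 92.4 and 90.5. Snhg12 had 3 in the DOP list and 2 in the SST list, with best percentiles of 88.9 and 86.9, and the additional DOP peak was of low rank, at percentile 19.8. For Snhg5 the best percentiles were 71.7 and 74.5, for Snhg15 (annotated as Gm11974) 66.2 and 59.3, for Snhg17 (9430008C03Rik) 80.4 and 82.5 and for Snhg4 50.4 and 64.6. A host of lower rank, 9330159M07Rik, had best percentiles of 35.3 and 31.6. Snhg17 and 9330159M07Rik were chosen after their values were seen. The named hosts differed between the lists in both directions.

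Gas5, whose RNA accumulates when growth stops, was the exception among the named snoRNA hosts. Its peak in the DOP list scored 340 (percentile 41.1), lay 334 bp upstream of an internal start, and had no counterpart in the SST list within 851 bp. The nearest protein-coding start, of the divergent gene Zbtb37, lay 1512 bp away. The SST list had a peak within 1 kb of a start of Gas5 too, but it fell within 1 kb of a protein-coding start and was left out. Snhg1 had no free start, and both lists had a peak within 1 kb of it. Snhg3, Snhg9 and Snhg20 are annotated as processed transcripts and so were not eligible, although both lists had a peak at each.

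Hosts of miRNAs were marked less often than snoRNA hosts, in 10 of 27 cases with a free start (37.0%, interval 21.5 to 55.8), an interval that overlaps that of genes without a small RNA. Dleu2, the host of a miRNA cluster that is often deleted in leukaemia, had 7 peaks in each list at separate start clusters on chromosome 14. At the inner start its DOP peaks had percentiles of 83.9, 94.3 and 57.6 and its SST peaks 93.8, 90.2 and 54.7. At the outer start the 4 DOP peaks ran from 53.2 to 85.4 and the 4 SST peaks from 48.7 to 85.8, and all 14 overlapped a peak of the other list. Gm11613 had 4 peaks in each list, with best percentiles of 90.9 and 78.5. A330023F24Rik, which contains Mir29b-2 and Mir29c, had its best peak 174 bp downstream of the start at percentile 66.2 in the DOP list and 132 bp downstream at 47.0 in the SST list. C130071C03Rik, which contains Mir9-2, had 1 peak of low rank (percentile 8.81) in the DOP list and none in the SST list, whose nearest centre was 5760 bp away. A330023F24Rik and C130071C03Rik were chosen after their values were seen.

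The mature miRNAs of these hosts are shown because they fall into 2 seed groups. They come from RefSeq (GRCm38.p6), with the seed, bases 2 to 8, in capitals, and the first 2 share it.
mmu-miR-29b-3p: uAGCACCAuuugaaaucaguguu
mmu-miR-29c-3p: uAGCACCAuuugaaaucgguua
mmu-miR-9-5p: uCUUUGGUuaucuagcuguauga

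Of the 4 lincRNAs of the X inactivation centre, 3 were marked in both lists. Xist, the RNA that coats the inactive X chromosome, had 1 peak in each list 792 and 787 bp downstream of its start, in an exon, at percentile 54.5 in the DOP list and 41.1 in the SST list. Jpx (annotated as Enox), an activator of Xist, had 2 in each list, at 37.0 and 65.6 in the DOP list and 34.2 and 63.1 in the SST list. Ftx (B230206F22Rik), another activator and the host of Mir374 and Mir421, had 7 and 6 peaks over several starts, with best percentiles of 70.5 and 71.6. Of these 13 peaks only 1, in the DOP list at percentile 24.0, had no overlap in the other list. Tsix, the antisense repressor of Xist, had none in either list.

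Other known lincRNAs fell into marked and unmarked groups. Of 5 imprinted lincRNA genes, 2 were marked in both lists. Airn, which silences Igf2r from within it, had 2 peaks in each list with best percentiles of 63.3 and 61.4, and Nespas, antisense at the Gnas locus, had 1 in the DOP list and 2 in the SST list with best percentiles of 50.8 and 46.3. Meg3, Rian and Mirg, which share 1 imprinted locus, had none. Among 6 lincRNA genes of growth control and the p53 response, Pvt1, the neighbour of Myc, had 2 and 3 peaks with best percentiles of 80.1 and 70.9, and Oip5os1 is described above. Epb41l4aos (annotated as 2410004N09Rik), which contains a snoRNA, had 3 peaks in the DOP list and 2 in the SST list, with best percentiles of 69.3 and 72.8, and all 5 were shared. Tug1, with a divergent promoter, had 1 in the DOP list at percentile 64.5, which overlapped an SST peak nearer to the start of Morc2a than the limit allows. Trp53cor1 and Meg3 had none.

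None of the 8 neural lincRNA genes (Six3os1, Dlx1as, Sox2ot, Rmst, Miat and others) and none of the 5 developmental ones (Hottip, Fendrr, Tunar and others) had a peak by the rule in either list. Among these, Fendrr and Hoxd3os1 had peaks in both lists within 1 kb of a protein-coding start. Of the 8 neural genes, 6 had a free start. Over all 727 lincRNA genes with a free start, 24.8% had a peak in either list. Each group of listed genes, here and above, is small, and none was tested against that share. In all, 73 gene names were listed, 58 of them led to 56 annotated genes by name or by a RefSeq synonym, 37 of these were lincRNA genes, 34 had a free start, and 16 had a peak. Malat1 and Neat1, the RNAs of nuclear bodies, are annotated as processed transcripts and were not eligible. Protein-coding markers read in the same way gave peaks at Vim and Msi1 in both lists among 6 neural progenitor markers, and none at Nes, Sox2, Pax6 or Fabp7. For other cell types, 0 of the 17 markers found of striatal neurons, astrocytes, the oligodendrocyte lineage and microglia had a peak in the SST list, and 3 (Ppp1r1b, Slc1a3 and Mbp) had one in the DOP list, none above percentile 15.0.

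**Figure D4:**
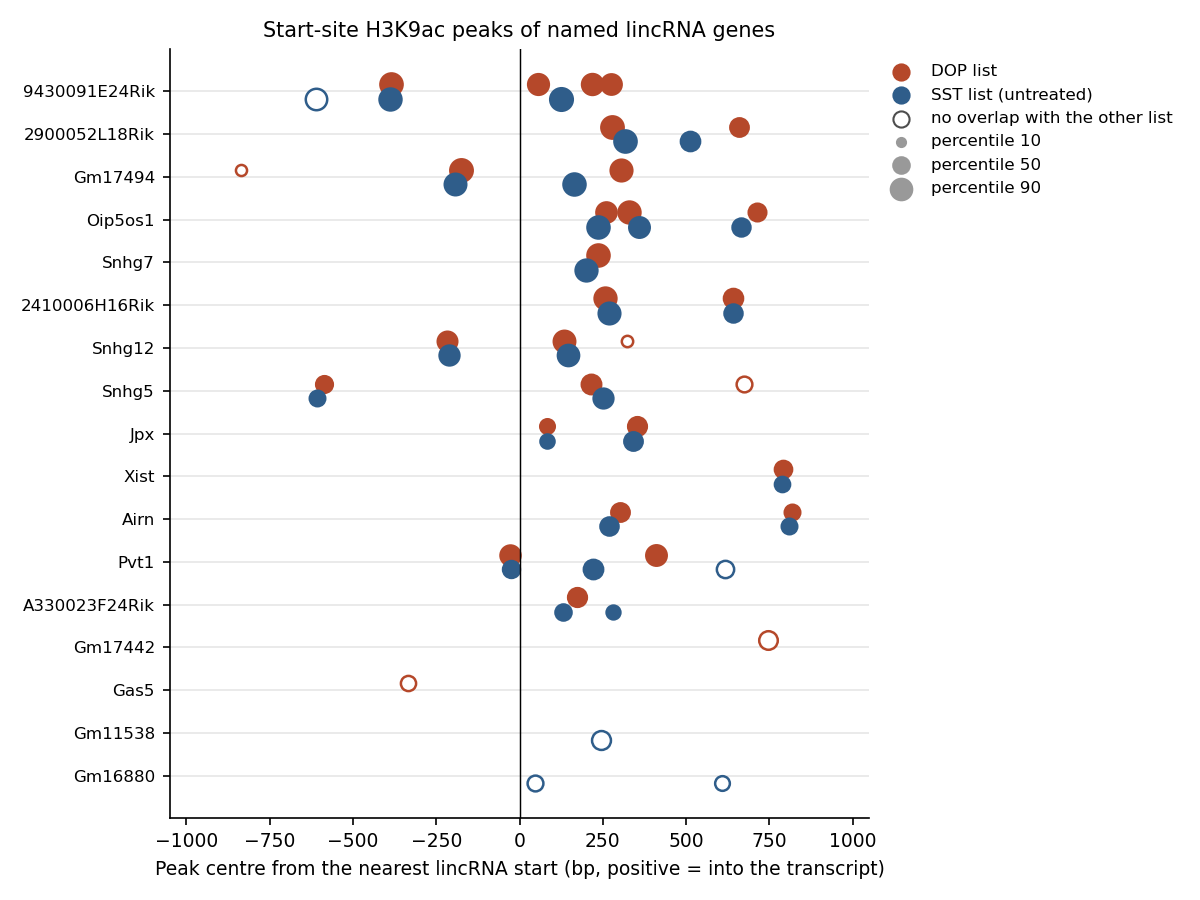
Peaks at the starts of 17 named lincRNA genes, by distance of the centre from the nearest lincRNA start (x axis, bp) in the DOP list (red, upper) and the SST list (blue, lower). Point area grows with the score percentile and open points had no overlap in the other list; most filled points pair within 150 bp between the lists, and the lowest 4 genes have open points from 1 list alone.

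Between the lists, most peaks at lincRNA starts were shared, and the share that was not lay near that of all peaks and above that of peaks at protein-coding starts. In the DOP list 75 of 332 (22.6%, interval 18.4 to 27.4) had no overlap of 1 bp or more with an SST peak, against 20.0% of all 34286 peaks and 12.8% of the peaks at protein-coding starts. In the SST list it was 44 of 298 (14.8%, interval 11.2 to 19.2) against 16.7% of all 33355 and 10.4% of those at protein-coding starts. If each of the 10 score classes had the share of all peaks, 20.2% and 16.7% would be expected, and with the share of peaks at protein-coding starts 19.1% and 15.1%, all inside the intervals. These unshared peaks ranked low, with median percentiles of 21.5 and 18.8 against 53.2 and 44.4 for the shared ones, and only 8 and 9 of them were above percentile 50. They were also often near a peak of the other list, with 53 of 75 and 30 of 44 within 1 kb of one. Among CpG-rich peaks at lincRNA starts 13.7% and 7.75% were unshared, and among the rest 30.2% and 21.2%. Shared peaks lay close together, with a median distance of 35 bp from a DOP centre to the nearest SST one.

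By gene, 188 lincRNA genes had a peak in the DOP list and 177 in the SST list, of which 160 were the same. Both lists had equal numbers of peaks at 81 of these, the DOP list had more at 50 and the SST list more at 29. The best percentiles of the 160 genes ran together across genes (Spearman rho 0.926, with 12 genes that share their best DOP peak with another, and genes are not independent replicates), and 115 differed by 10 points or less. The best percentile was higher in the DOP list at 110 genes and in the SST list at 50, with a median difference of 3.64 points in favour of DOP. Protein-coding genes with peaks in both lists were higher in the DOP list in 56.6% of cases against 68.8% of lincRNA genes (interval 61.2 to 75.4). Protein-coding genes depended on rank in this respect, from 71.9% of those with a mean percentile up to 30 to 50.05% of those above 80, and weighted to the ranks of the lincRNA genes their share was 62.3%, inside the interval of the lincRNA genes.

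A difference of over 20 points was seen at 6 genes, which were chosen after their values were seen. Of these, 5 were higher in the DOP list: 4930578M01Rik at 83.5 against 54.8, Gm10492 at 70.2 against 41.5, Gm10433 at 65.0 against 38.4, Hoxaas3 (2700086A05Rik), a transcript within the Hoxa cluster, at 41.6 against 20.2, and A830082K12Rik, next to Nr2f1, at 62.2 against 42.1. Gm12915 was the only one higher in the SST list, at 87.1 against 48.5. It had 4 peaks of 270.7 to 405 in the DOP list and 1 of 976 in the SST list, with the best of both centred 4 bp apart. Of its 4 DOP peaks, 2 overlapped no SST peak. The first 3 genes, with 2 peaks in the DOP list and 3 in the SST list, were likewise higher in the list with fewer peaks. So was Hoxaas3, with 1 and 2, whereas A830082K12Rik had 1 in each. Whether the number of peaks bears on these ranks was not tested.

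**Figure D5:**
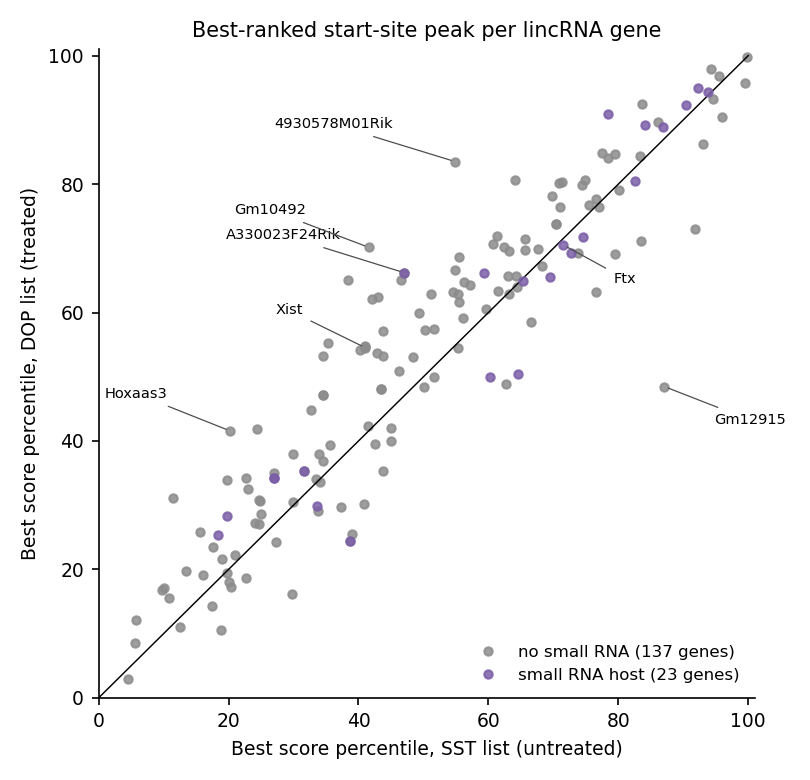
Highest score percentile among the start-site peaks of each of the 160 lincRNA genes marked in both lists, in the SST list (x axis) and the DOP list (y axis), with the line of equal rank. Purple points are hosts of small RNAs (23 genes); 110 genes lie above the line and 50 below it, and Gm12915 lies farthest from it.

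Genes marked in 1 list alone numbered 28 in the DOP list (14.9% of the 188 genes) and 17 in the SST list (9.60% of 177). Over genes of any type these shares were 4.35% and 3.37%, and over protein-coding genes 3.50% and 2.49%. The counts depended on the rule, with 12 and 10 genes when protein-coding starts were excluded within 5 kb, 58 and 31 when processed transcript genes were added, 34 in the SST list for a window of 2 kb, 8 there above percentile 50 and 7 there for a score of at least 100. The shares over genes of any type and over protein-coding genes count any peak within 1 kb of a start. By contrast, the lincRNA rule leaves out peaks within 1 kb of a protein-coding start. The lincRNA genes also had fewer and lower-ranked peaks than the protein-coding genes. The part of either difference in these shares was not tested. The median best percentile of the genes marked in 1 list alone was 23.4 in the DOP list and 5.17 in the SST list. At 14 of the 28 and 5 of the 17 the other list had a peak within 2 kb of the best one, and 2 in each list had a peak that did overlap one in the other list, which missed the rule.

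The highest-ranked of these genes mostly lay just beyond the protein-coding limit. In the DOP list they were Gm17442 (percentile 65.0, 1083 bp from the start of Sec63), Tug1 (64.5, 1034 bp from Morc2a), Gm15983 (60.6, 1047 bp from Fam86), E230016M11Rik (48.9, 1076 bp from Gadd45a) and Gas5 (41.1). In the SST list 1600020E01Rik (76.8) lay 1038 bp from the start of Pcbp1, Gm4673 (54.0) 1177 bp from Usf2 and 5031434O11Rik (44.0) 1526 bp from Setd7. The SST peak of 1600020E01Rik, like the DOP peak of Tug1, overlapped a peak of the other list that missed the rule. For 1600020E01Rik the nearest DOP centre lay 152 bp away. Gm11538 and Gm16880 differed from these genes. The SST peak of Gm11538 (score 589, percentile 67.6) was CpG-rich, lay 9383 bp from the start of Hoxb13, and had no DOP centre within 36564 bp. Gm16880, known as Platr22, had 2 SST peaks, at percentiles 45.0 and 37.9, and the nearest DOP centre was 10408 bp from the higher one.

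Counting only genes whose best peak was more than 5 kb from every centre of the other list left 14 in the DOP list and 12 in the SST list. Their best percentiles had medians of 10.2 and 3.86, and the highest in the DOP list was Gm4262, next to Litaf, at 33.4. It was followed by 3010027C24Rik at 31.2 and by 9330179D12Rik, whose peak lay 1444 bp from the start of Ccnd2, at 29.0. Each of these differences is between 1 list and another, with no replicate to set it against.

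Short sequence motifs, searched on both strands of the 200-bp intervals, were about as common at lincRNA starts as in all peaks, apart from a higher share of TATA in the SST list. The GC box GGGCGG of SP1 was in 27.4% of the DOP and 28.9% of the SST peaks, against 28.5% and 29.3% of all peaks. The NFY motif CCAAT was in 15.96% and 15.77%, against 13.9% and 13.6%. TATAAA was in 4.52% (interval 2.76 to 7.32) and 6.71% (4.39 to 10.1), against 3.21% and 3.26%, and peaks at neither kind of start had 4.85% and 5.34%. The SST share of TATAAA rests on 20 of 298 peaks, and the DOP interval holds the share of all peaks. Several motifs were read in both lists, with no correction for their number. The E-box CACGTG was in 4.82% and 4.70%, against 3.30% and 3.37%. The letters AAGATGGCG (YY1) and TTCAGCACC (the left part of the REST site) were in no peak at a lincRNA start, against 0.455% and 0.251% of all peaks in the DOP list.

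The label lincRNA holds as the older annotation gives it. Of the 205 genes, 142 were matched by symbol in a RefSeq table of a later assembly, where 122 are lncRNA genes, 9 are protein-coding and 8 are pseudogenes or transcribed pseudogenes. Ttc28 is one of the 142 matched genes, annotated here as a lincRNA gene that contains Mir701, with best percentiles of 89.2 and 84.2. It has up to 25 exons in a transcript and was chosen after its values were seen. The older label alone does not show that such a gene is non-coding. In the older annotation 176 of the 205 genes have a predicted or clone-based name, and some of these, such as Oip5os1 and Ftx, have gained another name since.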

How the data were processed

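H3K9ac peaks came from 2 deposited lists, 1 for the 2 Q111 DOP samples and 1 for the 2 Q111 SST samples. The authors' methods name Bowtie 2 and GPS on mm9, whereas the submitters' processing notes name BWA 0.7.10. How the samples and the IgG sample entered the call, and the threshold, are not given in the sources used here. The score is a value the authors deposited for each peak without a unit, and was turned into a percentile of its list. Depth per sample is unknown, and the 95% Wilson intervals cover the counting of peaks or genes only. They take peaks and genes as independent, although several peaks can lie at 1 gene, so they may be too narrow.

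Starts, exons and gene types came from GENCODE vM1, and sequence from NCBIM37 (mm9). A peak was assigned to its nearest lincRNA start, whereas counts per gene include every peak within 1 kb of any start of the gene. No antisense gene type exists in this annotation. CpG-rich sequence, overlap of 1 bp, and hosts (small RNA genes within the gene on its strand) were computed with Python 3.11.15, scipy 1.17.1 and pysam 0.24.0, and the functions were tested on simulated data. Members and lists were chosen with earlier results of these data known. Named genes were the list genes, the 10 with the highest mean best percentile, the 5 best in 1 list alone in each list, and the 5 with most peaks. Other genes are ranked within a stated set, named for a stated reason, or said to be chosen after their values were seen. The peaks of 2 lists allow no test between conditions. The IgG sample was not analysed here. Alternatives were other windows, limits, gene types, score subsets, sharing rules and CpG limits.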

Additional observations from a re-analysis of the deposited data

How the results depend on the processing

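Of 108 alternative values, 70 stayed within 1.5 times of the count, or within the interval of the share or median, and 38 did not. In each alternative the DOP list had more peaks at lincRNA starts (7 of 7), more genes with one (7 of 7), more unshared peaks (11 of 11) and more genes in 1 list alone (7 of 7). All alternatives re-cut the same 2 lists, so these tallies are not independent. The DOP list was also the longer one (34286 against 33355 peaks), with more of all its peaks unshared (20.0% against 16.7%). A window of 500 bp left 45 DOP and 23 SST unshared peaks, and a window of 2 kb gave 73 unshared peaks and 34 genes in the SST list alone. Excluding protein-coding starts within 5 kb left 125 genes in the DOP list, and 12 and 10 genes in 1 list alone. Adding processed transcript genes gave 531 and 471 peaks at 314 and 287 genes, with 130 and 73 unshared peaks and 58 and 31 genes in 1 list alone. Keeping peaks above percentile 50, which are fewer by construction, left 147 and 124 peaks at 95 and 81 genes, with 35 and 15 unshared peaks, 8 genes in the SST list alone, median percentiles of 66.5 and 67.6, 71.0% of the SST peaks downstream, and 58.5% and 58.9% CpG-rich. A score of at least 100 left 7 genes in the SST list alone. Reciprocal overlap of 50% made 114 and 81 peaks unshared. Sharing by centres left 46 and 27 unshared within 500 bp, 22 and 14 within 1 kb, and 19 and 14 within 2 kb. The stricter CpG limit (GC of 55%, ratio of 0.65, 500 bp) gave 35.8% and 35.6%. No paired analysis was possible because each condition has 1 list that pools its samples, and for the same reason no sample could be left out. Unknown depth and an undefined score limit every comparison between the lists.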

Other observations

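Further lincRNA genes with later names, chosen after their values were seen, were marked in both lists. Morrbid (annotated as Gm14005), known for control of the survival of myeloid cells, had 4 peaks in the DOP list and 3 in the SST list, with best percentiles of 84.4 and 83.4. Carmn (Gm16908), known from the cardiac mesoderm and smooth muscle, had 3 in each list, with best percentiles of 71.4 and 65.7. Firre (6720401G13Rik), which acts in nuclear architecture, had 1 in each list at 27.3 and 24.1. Mir100hg (D230004N17Rik), a miRNA host, had 1 in each at 28.3 and 19.8. The nearest protein-coding start to any of these peaks was that of Il17b, 21694 bp from a peak of Carmn.

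Peaks at lincRNA starts were on 20 chromosomes. Chromosome 2 held the most, 33 in each list, followed by chromosome 11 with 30 in the DOP list and 27 in the SST list.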
